A study of Mus musculus with 400 samples.

Results

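The genes described here are 7 genes of intestinal goblet cells, Muc2, Tff3, Agr2, Fcgbp, Clca1, Zg16 and Spdef, in single cells sorted for a high level of Lgr5. They were chosen by name as known goblet cell genes, with earlier results of these data known. All 7 had a row among the 33496 genes of the count table. The cells came from the duodenum and jejunum of Lgr5 GFP/+ mice, in which the Lgr5::EGFP-IRES-Cre-ERT2 allele places a green fluorescent reporter and an inducible Cre at 1 copy of Lgr5. All 400 cells belong to this 1 group, Lgr5-high, and no wild-type, treated or Lgr5-low cells are compared here. The protocols describe tamoxifen for lineage tracing in this model and do not say whether the mice behind these cells received it. Crypts were freed with EDTA, dissociated with dispase, cleared of dead cells with DAPI and sorted. Single cells were then captured on a Fluidigm C1 chip, a microfluidic device that isolates cells in separate chambers. Mice are described as age- and sex-matched without an age, and neither the number of mice nor the mouse of any cell is given. The population was therefore taken as 1 sample, and no p-value was computed.

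Goblet cells are the mucus-secreting cells of the intestinal epithelium. They arise from crypt stem cells through secretory progenitors that express the transcription factor Atoh1, and the factor Spdef acts later in their maturation. Their main product is Muc2, a gel-forming mucin that is folded in the endoplasmic reticulum with the help of Agr2, heavily glycosylated in the Golgi and released together with other mucus proteins. Lgr5, a receptor for R-spondins, is a marker of the stem cells that divide at the base of the crypt.

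The cell titles give a library set from 1 to 10 and a barcode from 1 to 40, and the same 40 barcode numbers recur in every set. Deposited counts summed to between 4491 and 70133 per cell, with a median of 31727.5. The 380 cells with at least 10000 counts were kept, 36 to 39 in each set, and the median total of a set lay between 29070 and 37769. No count of any gene exceeded 36 in a cell. Of 10 listed stem cell markers all 10 were measured, and Lgr5 had a count in 97.9% of kept cells. Of the 9 measured Paneth cell markers, Defa24 had a count in every kept cell and Lyz1 in 95.5%. The median over the 9 was 50% of cells and the lowest 17.9% (Habp2). As a measure of stray counts, 15 genes typical of other organs were read in the same cells. They had a count in 0.263% of cells at the lowest (Prm1, a protamine of sperm), 3.95% at the median and 27.9% at the highest (Acta1, skeletal muscle actin). A share of cells inside this range is not by itself a sign of expression.

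Promoters of the members were read to show what the genes share in sequence just upstream of their starts. RefSeq promoter windows of 300 bases, from 250 before to 50 after the start, were found for 4 of the 7 members (build GRCm38.p6). Tff3, Clca1 and Zg16 had no entry. The windows of Muc2 (chr7:141690090-141690389, plus strand), Agr2 (chr12:35992675-35992974, plus strand) and Spdef (chr17:27728902-27729201, minus strand) are shown because Muc2 and Agr2 had the widest gap in mean CPM between library set 4 and the next set and Spdef is the regulator among the members. Capitals mark matches on either strand to 4 strings that do not overlap in these windows. The TATA string was TATAAA. The E-box string, 1 form of the site that factors of the class of Atoh1 bind, was CAGCTG. The forkhead string was TGTTTAC. The ETS string, around the core that factors of the class of Spdef bind, was GGATG.
Muc2: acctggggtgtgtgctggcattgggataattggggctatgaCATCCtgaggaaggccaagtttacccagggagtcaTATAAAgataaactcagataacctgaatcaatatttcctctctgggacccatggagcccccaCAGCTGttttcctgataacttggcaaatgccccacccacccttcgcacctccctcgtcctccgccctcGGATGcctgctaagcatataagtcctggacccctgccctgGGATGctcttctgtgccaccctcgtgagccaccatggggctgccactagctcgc
Agr2: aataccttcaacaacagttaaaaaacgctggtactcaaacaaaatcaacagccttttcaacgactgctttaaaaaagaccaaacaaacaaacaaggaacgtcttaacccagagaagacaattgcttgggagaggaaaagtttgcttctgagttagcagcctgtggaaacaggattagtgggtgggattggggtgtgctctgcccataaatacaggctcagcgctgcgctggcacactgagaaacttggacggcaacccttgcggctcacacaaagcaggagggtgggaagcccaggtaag
Spdef: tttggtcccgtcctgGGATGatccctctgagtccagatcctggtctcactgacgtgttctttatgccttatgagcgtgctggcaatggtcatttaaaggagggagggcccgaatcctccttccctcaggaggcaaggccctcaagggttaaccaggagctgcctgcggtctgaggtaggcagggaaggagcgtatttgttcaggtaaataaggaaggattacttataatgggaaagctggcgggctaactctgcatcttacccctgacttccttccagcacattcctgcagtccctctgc
The Muc2 window held 1 TATA string, 1 E-box string and 3 ETS strings. The Spdef window held 1 ETS string and the Agr2 window none of the 4 strings. The window of Fcgbp, not shown, held 1 E-box string and 1 ETS string. Among 32851 RefSeq promoter windows of the same length, 13.6% held the TATA string, 16.3% the E-box string, 3.65% the forkhead string and 43.2% the ETS string. A match is a description of the letters and not a binding site.

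The secreted members ranged from genes seen in most cells to genes seen in few. Tff3, a trefoil peptide that protects and repairs the mucosa, had a count in 84.2% of the 380 cells (exact 95% interval 80.1 to 87.7%) and averaged 3.95 counts per cell. Zg16, a lectin-like mucus protein that binds Gram-positive bacteria, had a count in 62.4% of cells (57.3 to 67.3%) and averaged 1.92 counts. Fcgbp, a large mucus protein that associates with Muc2, had a count in 45.8% of cells (40.7 to 50.9%) and averaged 1.12 counts. Muc2 had a count in 32.6% of cells (27.9 to 37.6%) and averaged 0.929 counts. Clca1, a secreted protein that processes mucus, had a count in 12.9% of cells (9.69 to 16.7%) and averaged 0.274 counts. The shares of Tff3, Zg16, Fcgbp and Muc2 lay above the highest other-organ gene, and that of Clca1 lay inside the other-organ range. For Muc2 this depended on library set 4. Without that set its share was 26.1%, below the 27.9% of Acta1 over all 380 cells.

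Among the members that act inside the cell, Agr2, the protein disulfide isomerase of the endoplasmic reticulum needed for Muc2 production, had a count in 73.7% of cells (68.95 to 78.04%) and averaged 2.62 counts. Spdef, the ETS transcription factor of goblet and Paneth cell maturation, had a count in 11.8% of cells (8.77 to 15.5%) and averaged 0.25 counts, again inside the other-organ range. These intervals cover counting error only. When every cell was thinned at random to 19169 counts, which left out 38 shallower cells, the shares in the remaining cells were 73.4% for Tff3, 59.1% for Agr2, 50% for Zg16, 34.2% for Fcgbp, 24.6% for Muc2, 9.36% for Clca1 and 8.77% for Spdef. The order of the members did not change. The thinned intervals of Clca1 (6.49 to 12.95%) and Spdef (6.00 to 12.3%) overlap, and those neighbours cannot be told apart by their shares. Those of Agr2 (53.6 to 64.3%) and Zg16 (44.6 to 55.4%) overlap slightly. So do those of Fcgbp (29.2 to 39.5%) and Muc2 (20.1 to 29.5%).

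Levels per length were compared as CPM (the count scaled to a common total for every cell) per kilobase of annotated exon. Tff3 stood at 262.04 CPM per kilobase, Agr2 at 71.1 and Zg16 at 53.3. Muc2 stood at 4.92 CPM per kilobase, Spdef at 3.68, Fcgbp at 3.32 and Clca1 at 2.70. On this scale the regulator Spdef stood beside the large secreted proteins, although it had the lowest mean count of the members. Which part of a transcript was read is not given in the sources used here. If counts came from 1 end of each transcript, division by length understates Fcgbp, with 10497 exonic bases, and Muc2, with 7127, against Tff3, with 493.

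All 7 members were annotated as protein-coding and no member's exons overlapped an exon of another gene. In GRCm38 coordinates, Muc2 (ENSMUSG00000025515.15) lies on chr7:141690340-141754693, Fcgbp (ENSMUSG00000047730.17) on chr7:28071236-28120862 and Zg16 (ENSMUSG00000049350.6) on chr7:127050156-127087328. Clca1 (ENSMUSG00000028255.6) lies on chr3:145003817-145032776, Agr2 (ENSMUSG00000020581.11) on chr12:35992907-36004087, Tff3 (ENSMUSG00000024029.4) on chr17:31125306-31129646 and Spdef (ENSMUSG00000024215.13) on chr17:27714352-27728955. Fcgbp has a related gene on the same chromosome, 9530053A07Rik, which RefSeq lists under the synonym FCGBP, and how reads that fit both were counted is not given. Fcgbp counts are uncertain to that extent.

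Counts of each member were spread unevenly over the cells. The variance of counts over cells was between 4.43 times the mean (Agr2) and 6.01 times the mean (Muc2), and 7 of 7 members had a variance of at least 2 times the mean. This was also so for 69.1% of the 20832 genes found in 5% or more of the cells, so this property is common in the table. The 19 cells with the most counts of a gene, 5% of all cells, held 72.6% of Spdef counts, 71.2% of Clca1 counts, 50.1% of Muc2 counts and 42.4% of Fcgbp counts. For Zg16, Agr2 and Tff3 the corresponding shares were 30.2%, 24.8% and 24.7%. This share depends in part on how few cells have a count of the gene, and it was not computed for genes at large. Outside the members, it was 70.8% for Mex3a, found in 12.4% of cells, and 85.96% for Atoh1, found in 7.11%. The shares of Spdef and Clca1 therefore do not set them apart from Mex3a, which was found about as often. At 10 counts or more there were 33 cells for Tff3, 14 for Agr2 and 10 for Zg16. There were 8 such cells for Muc2, 7 for Fcgbp, 2 for Clca1 and 1 for Spdef. The highest single-cell counts were 29 for Agr2, 26 for Tff3, Fcgbp and Zg16, 23 for Muc2, 15 for Clca1 and 14 for Spdef, against a highest count of 15 among the other-organ genes (Acta1).

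The library sets differed in the members, and set 4 stood apart. Muc2 had a count in 35 of 39 cells of set 4 (89.7%, exact 95% interval 75.8 to 97.1%), against a lowest of 2.56%, a median of 23.7% and a highest of 43.2% over the other 9 sets. The lowest was set 5, with 1 of 39 cells. Mean Muc2 was 138.6 CPM in set 4, against 0.651 CPM at the lowest, 26.2 at the median and 47.96 at the highest over the other sets. Set 4 did not overlap with any other set by either measure. The median cell of set 4 had 2 Muc2 counts, and the median cell of each other set had 0.

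Agr2 had a count in 39 of 39 cells of set 4, against 56.4% at the lowest, 70.3% at the median and 89.5% at the highest over the other 9 sets. Its mean was 246.7 CPM in set 4, against 43.6, 68.3 and 114.6 CPM at the lowest, median and highest of the others. Zg16 had a count in 92.3% of cells of set 4, against 38.5%, 54.1% and 87.2%, and averaged 150.8 CPM in set 4, against 23.1, 47.4 and 121.2 CPM. Set 7 came closest to set 4 for Zg16, and the exact intervals of the shares in set 4 (79.1 to 98.4%) and set 7 (72.6 to 95.7%) overlap.

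Tff3 had a count in 97.4% of cells in set 4 and equally in set 7, with a lowest of 64.9% and a median of 91.7% over the sets other than set 4. Its mean was 230.2 CPM in set 4, against 51.2, 114.1 and 217.7 CPM at the lowest, median and highest of the other sets. Spdef had a count in 20.5% of cells in set 4, against 5.13%, 10.3% and 18.9%, which is no separation at 39 cells (exact interval in set 4, 9.30 to 36.5%). Clca1 was found in 28.2% of cells in set 4 and was as frequent in set 1, at 31.6%, while the median over the sets other than set 4 was 10.3%. Fcgbp was found in 56.4% of cells in set 4, inside the range of 12.8 to 66.7% over the others. In all, 5 of 7 members (Muc2, Tff3, Agr2, Zg16 and Spdef) had their highest or joint highest share of cells in set 4, where 7.22% of 15504 genes with a count in 10 to 90% of cells did.

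**Figure D1:**
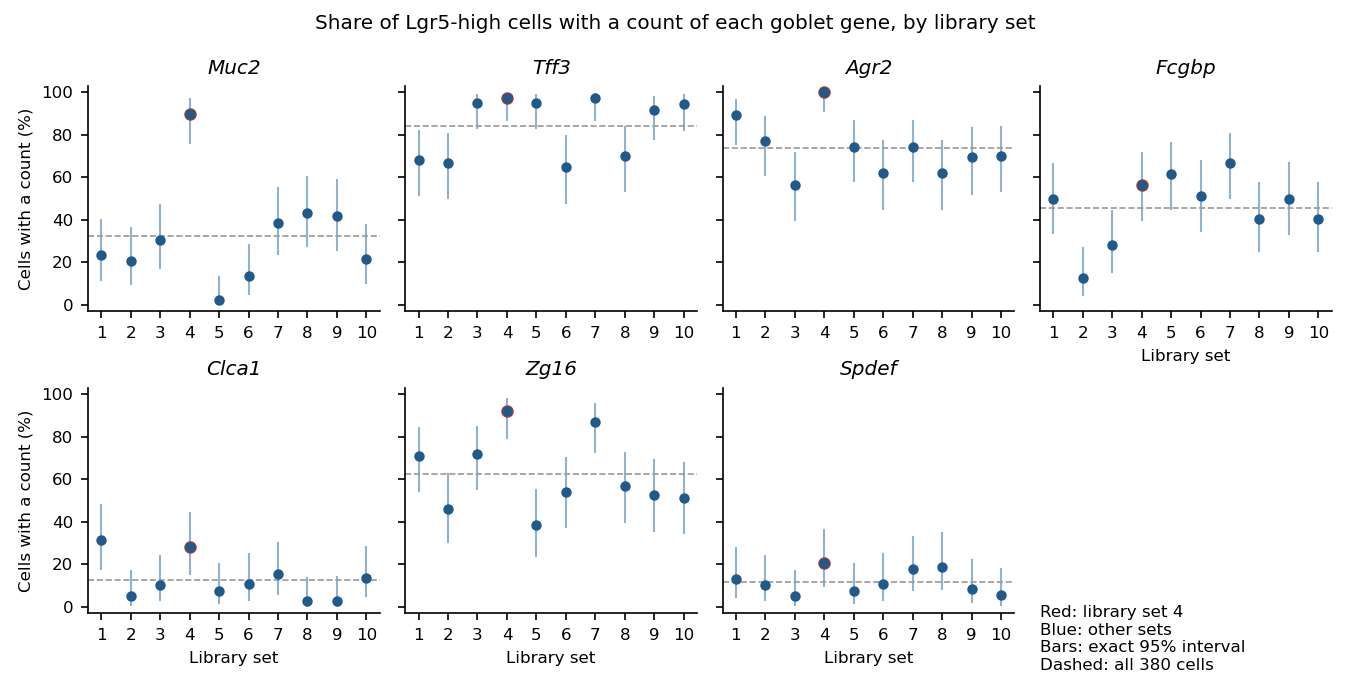
Share of kept cells with at least 1 count (%) in each of the 10 library sets, 1 panel per gene, with exact 95% intervals for counting error, set 4 in red and the share over all 380 cells dashed. Muc2 stands at 89.7% in set 4 and between 2.56 and 43.2% in the others, Agr2 reaches 100% in set 4, and Fcgbp and Clca1 in set 4 lie inside the range of the other sets.

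Over the 10 sets, the standard deviation of the share of cells with a count was 3.13 times the binomial expectation for Muc2, 2.43 times for Tff3 and 2.25 times for Zg16. It was 1.98 times for Fcgbp, 1.83 times for Agr2 and for Clca1, and 1.07 times for Spdef, which varied between sets about as much as counting alone would give. A ratio of at least 2 was reached by 3 of 7 members and by 6.88% of the 15504 genes, whose median ratio was 1.37. Only 4 of those genes had a larger ratio than Muc2, and they are named here after their values were seen. Trpm5, a channel of tuft cells (ratio 3.81), and Atp12a, a proton pump subunit (3.47), were highest in set 1. Apoa4, an apolipoprotein of enterocytes (3.73), was highest in set 10, and 4933416M07Rik (3.55) in set 2. Trpm5 had a count in 71.1% of cells of set 1 and in at most 16.2% of any other set, and its highest single-cell count, 17, was also in set 1. In the same way the highest single cell of Apoa4, with 25 counts, was in set 10.

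This joint behaviour of the highest cell and the remaining cells was then measured for the members. In each set the cell with the highest count of a member was set beside the mean count of all other cells of that set. In set 4 the highest cell had 23 Muc2 counts and the other 38 cells averaged 3.05, whereas in set 5 the highest cell had 1 count and the other cells had 0. Over the 10 sets Pearson's r between the highest cell and the mean of the others was 0.98 for Agr2, 0.96 for Clca1, 0.95 for Zg16 and 0.91 for Muc2. It was 0.78 for Tff3, 0.74 for Spdef and 0.42 for Fcgbp. Genes with a count in 10 to 90% of cells had a median r of 0.57. These values describe 10 points that share a library set each, and for the members with few counts they rest on the sets with a rich cell. Whether counts passed between cells of a set was not tested.

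**Figure D2:**
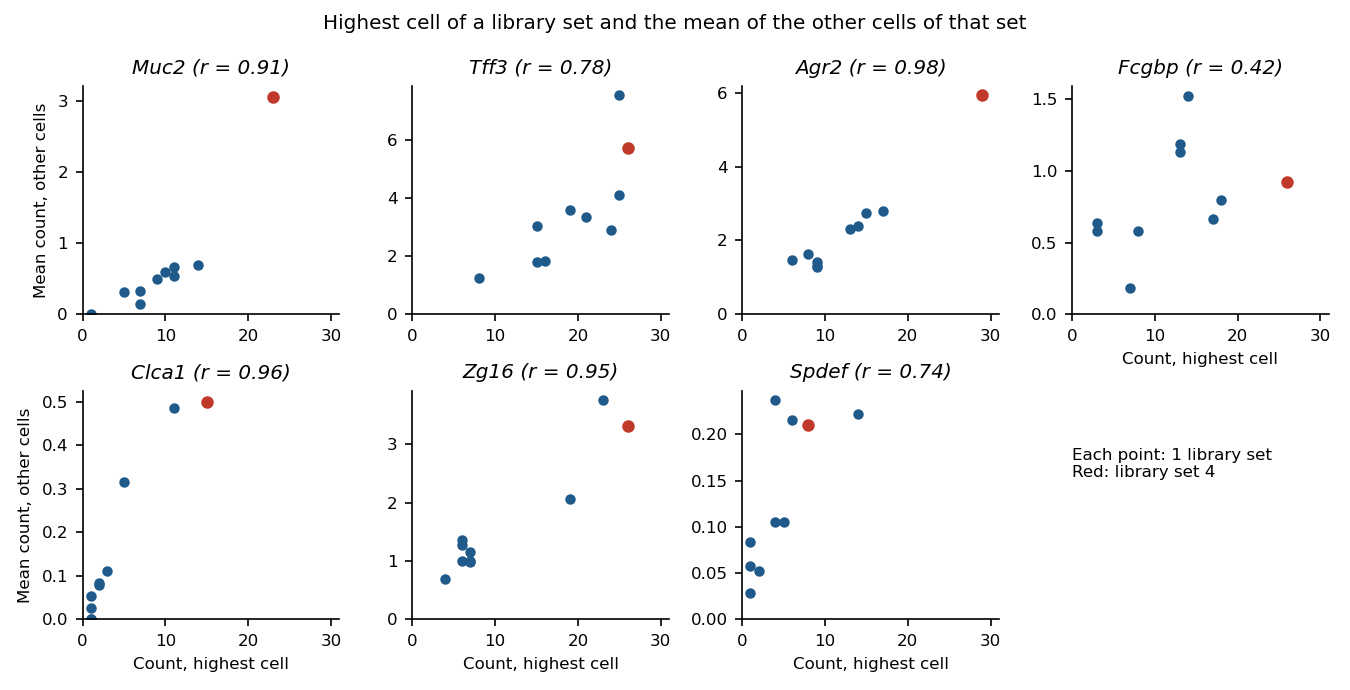
For each gene, the count in the highest cell of a library set (horizontal axis) and the mean count of all other kept cells of that set (vertical axis), 1 point per set, set 4 in red. For Agr2, Clca1, Zg16 and Muc2 the points rise together (r of 0.98, 0.96, 0.95 and 0.91 over 10 sets), and for Fcgbp they scatter (r of 0.42).

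The cell richest in the members was in set 4 (barcode 40) and carried all 7 of them. It had 29 counts of Agr2, 26 each of Tff3, Fcgbp and Zg16, 23 of Muc2, 15 of Clca1 and 8 of Spdef, in a total of 33544 counts in which no gene exceeded 31. The same cell had 5 counts of Lgr5, 1 of Atoh1 and 0 of Mex3a. Among kept cells it held the highest count of Muc2, Tff3, Agr2, Fcgbp, Clca1 and Zg16. The highest Spdef count, 14, was in a cell of set 8. Of the 19 cells with the highest mean log2(CPM + 1) of the 7 members, 9 were in set 4, and all 19 had an Lgr5 count. Mean Lgr5 was 238.9 CPM in these 19 cells and 207.4 CPM in the other kept cells. Their median total was 26240 counts, against 32273 in the others.

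Without its 9 richest cells, set 4 still differed in Muc2 and Agr2. Muc2 had a count in 26 of the remaining 30 cells (86.7%) and Agr2 in 30 of 30, with mean counts of 1.77 and 4.67. Zg16 had a count in 27 of these 30 cells and Tff3 in 96.7%. Clca1 and Spdef, had a count in 3 and 2 of them. The 9 cells were picked on the members' own levels, so lower values of the members without them follow in part from that choice. After thinning, Muc2 had a count in 24 of 32 cells in set 4, against 2.56 to 29.4% of cells in the other sets, and Agr2 in 31 of 32, against 40.6 to 75.8%.

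**Figure D3:**
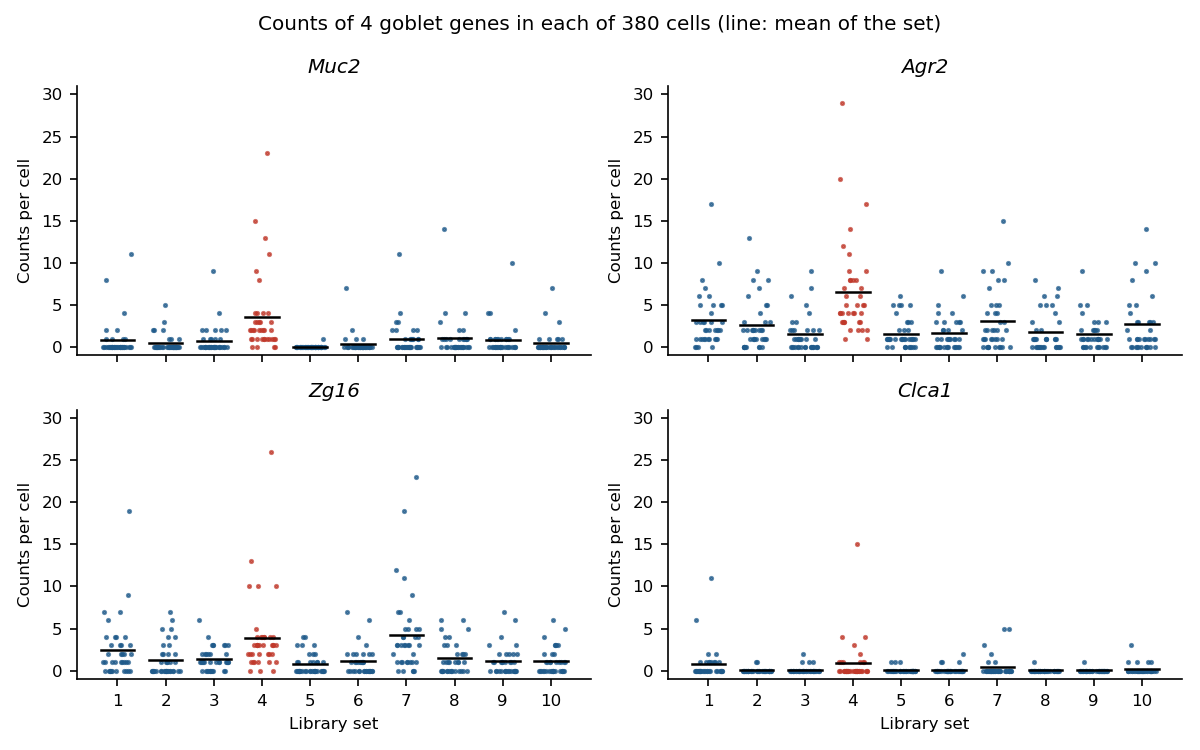
Counts per cell of Muc2, Agr2, Zg16 and Clca1 (vertical axis) in the 380 kept cells by library set, 1 point per cell with sideways scatter added for legibility, set 4 in red and a black line at the mean of each set. In set 4 the means of Muc2 and Agr2 lie higher than in any other set, with tops at 23 and 29 counts, although single cells overlap with those of other sets. For Clca1 in set 4, 1 cell with 15 counts stands over cells with few.

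Other goblet genes were not highest in set 4 more often than genes at large, of which 7.22% were. Of 17 further goblet cell products that could be compared, 1 had its highest share in set 4, Guca2a (the guanylin precursor, a secreted regulator of fluid and salt), with a count in 61.5% of cells in set 4 and in 2.56 to 31.6% of cells in the others. Spink4, an abundant secreted inhibitor, had a count in every cell of set 4 and in 84.6 to 100% of cells elsewhere. Of 15 mucin glycosylation genes 1 was highest in set 4, Gcnt3 (an enzyme that branches mucin sugar chains), at 28.2% against 0 to 23.1%, and of 16 genes of endoplasmic reticulum folding and secretion 1, Fkbp11. None of 8 secretory fate factors was. Of markers of other cell types, 0 of 2 enteroendocrine, 0 of 7 tuft, 0 of 6 enterocyte, 0 of 1 stem, 0 of 3 immune and 0 of 4 stromal and endothelial genes were highest in set 4, and 1 of 5 Paneth genes (Habp2) was. Of the other-organ genes, 2 of 4 were (Myh6 and Nphs1).

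The summed level of the 7 members was 867 CPM in set 4 and 203.2 to 515.4 CPM in the other sets. For the Paneth list, of which 9 of 10 genes were measured, the sum in set 4 was 1115 CPM, within the range of 907 to 2149 CPM over all sets, and Lyz1, the Paneth lysozyme, had a count in 82.1% of cells in set 4 against 86.5 to 100% in the others. The sum over other-organ genes was 71.6 CPM in set 4, near the top of its range of 23.9 to 72.9 CPM. The median total of set 4, 29070 counts, was the lowest of the 10. At 1 thinned depth Muc2 and Agr2 still stood apart in set 4, and the part of stray counts in the result was not tested.

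Across cells, the members rose and fell together weakly. Pearson's r of log2(CPM + 1), centred within library sets, was above 0 for 21 of 21 pairs over 380 cells, with a median of 0.11. It reached at least 0.2 in 4 pairs, Tff3 with Fcgbp (0.23), Muc2 with Zg16 (0.22), Muc2 with Tff3 (0.20) and Muc2 with Clca1 (0.20). Of 120470 pairs of a member with any other gene in at least 10% of cells, 0.462% reached that value. Muc2 with Spdef had the lowest r, 0.0083, and Agr2 with Fcgbp had 0.011. Cells share libraries, depth and the total that CPM divides by, and in counts this sparse an r of this size is a description only.

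The correlation was stronger within set 4. Within set 4 alone the median r over the 21 pairs was 0.41 and 20 pairs reached 0.2, with Agr2 and Clca1 highest at 0.59. In each of the other 9 sets taken alone the median was between 0.016 and 0.18, and 4 to 9 pairs reached 0.2. An r of 0.2 is reached more easily in the few cells of 1 set than over all cells. The share of member pairs with any other gene that reached it within a single set was not computed. Without the richest cell of each set, the median was 0.36 in set 4, with 19 pairs at 0.2 or more, and between 0.0042 and 0.20 in the others, with 2 to 11 pairs. Over the cells outside set 4, the median r was 0.09, close to that over all cells, and 2 pairs reached 0.2. Tff3 with Fcgbp (0.23) and Muc2 with Zg16 (0.20) were those pairs. Leaving out set 1 in place of set 4 also left 2 pairs. Without the 19 cells richest in the members 0 of 21 pairs reached 0.2, and since those cells were picked on the members themselves, that count must be lower.

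**Figure D4:**
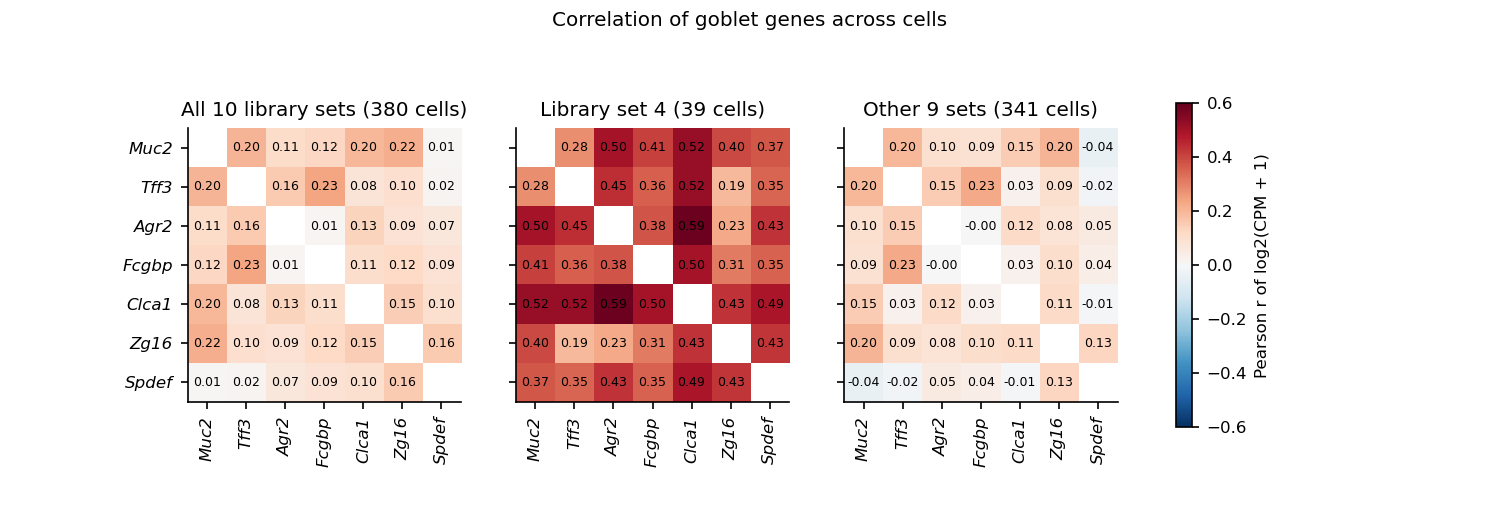
Pearson's r of log2(CPM + 1) for the 21 pairs of the 7 genes over all 380 cells (left), the 39 cells of library set 4 (middle) and the cells of the other 9 sets (right), centred within sets, on 1 colour scale from -0.6 to 0.6. Set 4 has a median r of 0.41, and the other 9 sets together have one of 0.09.

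Each member was also compared with the mean of the other 6. The correlation was 0.29 for Muc2, 0.27 for Tff3, 0.26 for Zg16, 0.25 for Clca1, 0.22 for Fcgbp, 0.17 for Agr2 and 0.14 for Spdef. With log2 of the cell's total count, r lay between -0.15 (Agr2) and 0.14 (Fcgbp). The transcription factor Spdef had the lowest correlation with the rest, little below that of Agr2.

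Counted as presence, the members co-occurred modestly. In the thinned cells, a member was more frequent among cells with another member than among cells without it in 36 of 42 ordered pairs. For a member and any other gene, the same held in 53.6% of 119063 pairs. Both orders of a member pair share the sign of the difference, so the 42 are 21 pairs in both orders. The exceptions were Muc2 with Spdef, Tff3 with Spdef and Agr2 with Fcgbp, each in both orders. The median difference over the member pairs was 11.7 percentage points, with a range of -3.72 to 34.5, where the median with any other gene was 0.59 points. It was 8.54 points when shares were compared within library sets, 7.12 points without set 4, 4.13 points without the 19 cells richest in the members and 7.39 to 11.6 points over 20 other random draws of the thinning, all below the draw described here. Zg16 was found in 81.2% of the 32 cells with Clca1 and in 46.8% of the 310 cells without it. Muc2 was found in 53.1% of cells with Clca1 and in 21.6% of cells without it, and in 30.7% of cells with Tff3 and 7.69% of cells without it. Muc2 and Spdef showed no such relation, since Muc2 was found in 23.3% of the 30 cells with Spdef and in 24.7% of the cells without it.

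The median thinned cell carried 2 of the 7 members, and 17 cells carried none. At least 5 members were found in 36 cells (10.5%), of which 15 were among the 32 thinned cells of set 4. The median was 4 members in set 4 and 2 in the cells outside it. All 7 were found in 3 cells, 2 of them in set 4.

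Genes outside the list were ranked by their likeness to the mean of the 7 members over 380 cells, again centred within sets. Guca2a ranked first (r of 0.35) and Gcnt3 second (0.30). The next were Gm12088 (0.27), the peroxidase Gpx7 of the endoplasmic reticulum (0.26), Grip1 (0.26), the Fcgbp relative 9530053A07Rik (0.25), Armc3, Fam214b, Synpo2 and Gm20324 (each 0.24). Of 17210 genes, 55 (0.32%) reached 0.2 and the median was 0.015. Without set 4, r was 0.28 for Guca2a and 0.16 for Gcnt3. Without the 19 richest cells it was 0.18 for Guca2a, 0.12 for Gcnt3 and 0.27 for Gm12088.

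For single members, the most alike gene was Pla2g2a for Muc2 (0.26), a secreted phospholipase of Paneth cells in mice, followed by Guca2a (0.21) and Spink4 (0.20). It was Mthfd2l for Fcgbp (0.27), Gcnt3 for Clca1 (0.31), Palld for Zg16 (0.32), Pstpip2 for Spdef (0.27), Srsf1 for Tff3 (0.24) and Pym1 for Agr2 (0.21). 9530053A07Rik was among the 3 most alike genes for both Fcgbp (0.25) and Spdef (0.26).

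Of the lists of goblet cell biology, the further goblet cell products had the highest median r with the mean of the members, 0.12. Of 19 measured, 16 were above 0 and 1 reached 0.2, where 57.6% of all genes were above 0. Guca2a (0.35) and Ramp1 (0.18) were highest, and Clca3b (-0.17) and Pla2g10 (-0.04) lowest. Of 15 mucin glycosylation genes 9 were above 0 (median 0.04), with Gcnt3 (0.30) and the sialyltransferase St3gal4 (0.13) highest and Nans (-0.04) and Galnt4 (-0.04) lowest. Of 25 genes of endoplasmic reticulum folding and secretion 13 were above 0 (median 0.000078), led by Ern2, the stress sensor of mucus-secreting cells (0.22), and Creb3l1 (0.16), while Creb3l4 (-0.13) and Pdia3 (-0.12) were lowest. Of 11 secretory fate factors 6 were above 0 (median 0.0032), with Foxa3 (0.15) and Dll1 (0.09) highest and Foxa2 (-0.12) and Hes1 (-0.12) lowest. Among stem markers 3 of 10 were above 0, and Lgr5 had an r of 0.04. Lists of other cell types showed values of like size. Of the Paneth list 7 of 9 were above 0 (median 0.04), led by Mmp7 (0.19), of the enteroendocrine list 2 of 2 (0.18, Gip 0.22), of the stromal and endothelial list 4 of 4 (0.10), of the tuft list 6 of 7 (0.06) and of the immune list 3 of 5 (0.07).

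Because the series is concerned with Mex3a, an RNA-binding protein, in Lgr5-high cells, the members were compared between the 47 cells with a Mex3a count and the remaining kept cells, without one. Most members were at a like or lower level in cells with Mex3a, and 1 of 7 was lower by a log2 ratio of at least 1, where 6.58% of 20831 genes were. None was higher by that much, where 1.34% of genes were. The median log2 ratio was -0.26 over the members and -0.05 over all genes, and the median over the members was 0.0054 without the 19 cells richest in them. Cells with a Mex3a count were slightly deeper, with a median of 34019 counts against 31936.

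The member past that size was Spdef, with 3 counts where Mex3a was found and 92 elsewhere. Its mean was 1.46 CPM with Mex3a and 9.47 CPM without it, a log2 ratio of -2.09 of mean CPM with a pseudocount of 1, and the log2 ratio of summed counts was -2.14 with a counting interval of -4.44 to -0.54. With a pseudocount of 10 CPM the log2 ratio was -0.76. The share of cells with Spdef was 6.38% with Mex3a (exact 95% interval 1.34 to 17.5%) and 12.6% without (9.24 to 16.7%), and these intervals overlap. With 3 counts behind the lower value, the ratio is poorly determined.

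Muc2 was more often present in cells with Mex3a, at 51.1% of them (36.1 to 65.9%) and 30.03% of cells without (25.2 to 35.3%). These intervals lie just apart and cover counting error only. How many of all genes have intervals that part in this split was not counted, and no intervals were computed for the thinned shares. After thinning the shares were 40.5% and 22.3%, within library sets the unthinned difference was 19.1 percentage points, and outside set 4 the shares were 43.9% with Mex3a and 23.7% without. The share was higher with Mex3a in 7 of 10 sets. The level did not follow, at 37.8 CPM with Mex3a and 34.7 CPM without (log2 ratio 0.12, and -0.16 without set 2). Within the 9 sets with at least 3 cells of each kind the level was higher with Mex3a in 3, with a mean log2 ratio of -0.36 and a standard deviation of 2.06. The highest Muc2 count was 8 with Mex3a and 23 without. Muc2 was thus found in a larger share of cells with Mex3a, at low counts.

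For the remaining members, the log2 ratio of cells with Mex3a over cells without was 0.23 for Tff3, -0.14 for Zg16, -0.26 for Agr2, -0.63 for Fcgbp and -0.76 for Clca1. Fcgbp averaged 23.3 CPM with Mex3a and 36.5 CPM without, although it was present in 53.2% of cells with Mex3a and 44.7% of cells without. The highest Fcgbp count was 4 with Mex3a and 26 without.

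Of other goblet cell products, 7 of 22 had a ratio above 0 for Mex3a and the median was -0.11, and 1 was lower by at least 1. Bcas1 (0.91) and Tspan13 (0.27) had the highest ratios and Scin (-1.58) and Guca2a (-0.68) the lowest. Of 14 secretory fate factors 8 were higher with Mex3a, with Notch2 (0.85) and Dll4 (0.42) highest, and Atoh1 itself was lowest (-1.80, 0.667 CPM with Mex3a and 4.81 CPM without). Of 17 mucin glycosylation genes 9 were higher, and Gcnt4 was the 1 gene lower by at least 1 (-1.18).

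Atoh1 directs crypt cells to the secretory fate, and 27 kept cells had a count of it. All 7 members had a higher mean level in these cells than in the other kept cells, and 4 of 7 were higher by a log2 ratio of at least 1, where 3.04% of 20831 genes were. None was lower by that much, where 8.01% of genes were. The log2 ratio was 1.93 for Clca1, 1.55 for Fcgbp, 1.13 for Spdef, 1.08 for Tff3, 0.82 for Muc2, 0.47 for Zg16 and 0.37 for Agr2. The median over the members was 1.08, and over all genes -0.03. Cells with an Atoh1 count were slightly deeper, with a median of 34164 counts and 9057 genes against 31904 counts and 8577 genes.

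This result rested on 1 cell for several members. The cell with the highest counts of 6 members was among the 27, with 1 Atoh1 count, and without it the median over the members was 0.28. Clca1 then stood at 1.08, Fcgbp at 1.07 and Tff3 at 0.97, while Spdef stood at 0.28, Muc2 at 0.08, Zg16 at -0.03 and Agr2 at -0.04. The value of Clca1 still rested mostly on 1 other cell. Of the 28 Clca1 counts in cells with Atoh1, the richest cell held 15 and 1 cell of set 1 held 11. Without the 19 cells richest in the members, a choice made on the members' own levels, the median was -0.23, Fcgbp stood at 0.90 and Clca1 at -0.89. The median was 0.70 without set 4, 0.68 with a pseudocount of 10 CPM and 0.76 for cells with at least 2 Atoh1 counts. Tff3 averaged 254.7 CPM in cells with Atoh1 and 119.6 CPM in cells without, and its ratio stayed between 0.97 and 1.18 in every alternative that was run. Only 4 library sets had at least 3 cells with Atoh1, and within those sets the members differed from each other. Tff3 was higher with Atoh1 in 4 of 4 (mean log2 ratio 0.97, standard deviation 0.31). Muc2 (mean 0.16), Agr2 (0.20) and Fcgbp (-0.42) were higher in 3 of 4 each, Clca1 (-0.97) and Spdef (-2.36) in 1 of 4 each and Zg16 (-1.39) in 0 of 4.

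The shares of cells showed less. Tff3 was present in 92.6% of cells with Atoh1 (exact 95% interval 75.7 to 99.1%) and 83.6% of cells without (79.3 to 87.3%). Spdef was present in 18.5% (6.30 to 38.1%) and 11.3% (8.22 to 15.1%), and Muc2 in 37.0% and 32.3%. Zg16 was present in 55.6% of cells with Atoh1 and in 62.9% of cells without. With 27 cells, none of these intervals separates. In the thinned cells Zg16 was present in 33.3% of cells with Atoh1 and in 51.4% of cells without. Agr2, at 77.8% and 73.4% before thinning, then stood at 48.1% and 60%. Tff3, Spdef, Muc2, Fcgbp and Clca1 remained more frequent with Atoh1. No intervals were computed for the thinned shares.

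Further genes of the secretory programme were counted in the same split, with the cell richest in the members included. These lists were not counted without that cell. The median log2 ratio of all genes was -0.03, with 3.04% higher by at least 1 and 8.01% lower. For none of the splits is the share of all genes with a ratio above 0 given here. Of 22 other goblet cell products 13 were higher with Atoh1, 5 of them by at least 1, led by Rep15 (1.85) and Ccl9 (1.80), and Agr3 (-0.95) and Bcas1 (-0.89) were lowest. Of 13 secretory fate factors 11 were higher and 3 by at least 1, led by the Notch ligand Dll4 (2.14) and the endocrine factor Neurog3 (1.57). Of 26 genes of endoplasmic reticulum folding and secretion 21 were higher, with a median of 0.25 and none by at least 1. Of 9 Paneth genes 2 were higher, and Mmp7 (-1.34) and Defa22 (-1.24) were lowest. Of 7 enteroendocrine genes 4 were higher with Atoh1, 2 of them by at least 1, and 1 was lower by at least 1. Those higher were Neurog3, which is also on the fate list, and Sct (1.39), and the lower gene was Cck (-1.66).

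Since the cells had been sorted on Lgr5, the members were followed over tertiles of the Lgr5 level within the sorted population. Mean Lgr5 was 90.6, 195.3 and 342.05 CPM in the lowest, middle and highest tertile. Muc2 averaged 38.6, 34.7 and 31.8 CPM in that order, and Tff3 140.2, 136.5 and 110.8 CPM. Fcgbp averaged 38.5, 44.4 and 21.6 CPM, and Clca1 12.6, 11.1 and 6.91 CPM. Zg16 ran the other way, at 54.6, 68.4 and 77.9 CPM. Agr2 averaged 86.8, 98.1 and 90.3 CPM, and Spdef 7.32, 6.17 and 11.98 CPM.

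Between the lowest and the highest tertile no member differed by a log2 ratio of 1 in all kept cells. For Spdef and Clca1 this depended on the cells used. Spdef was at -1.24 without set 5, -1.13 without set 4, -1.01 without the richest cell and -0.03 without set 8, and Clca1 at 1.04 in all 400 cells and 1.17 without the 19 richest. Among 20831 genes, 1.55% were higher by that much in the lowest tertile and 2.54% lower. The log2 ratio of lowest over highest was 0.81 for Fcgbp, 0.78 for Clca1, 0.34 for Tff3, 0.27 for Muc2, -0.06 for Agr2, -0.50 for Zg16 and -0.64 for Spdef. Over the 10 library sets Fcgbp had a mean ratio of 0.60 with a standard deviation of 0.71 and was higher in the lowest tertile in 7 of them. Zg16 had a count in 52.8% of cells of the lowest tertile (43.7 to 61.7%) and in 69.05% of the highest (60.2 to 76.98%), and these intervals overlap slightly. Within library sets the difference in Zg16 was -18.2 percentage points, and its share was higher in the lowest tertile in 1 of 10 sets. After thinning, Zg16 shares were 44.7% in the lowest tertile and 54.1% in the highest.

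**Figure D5:**
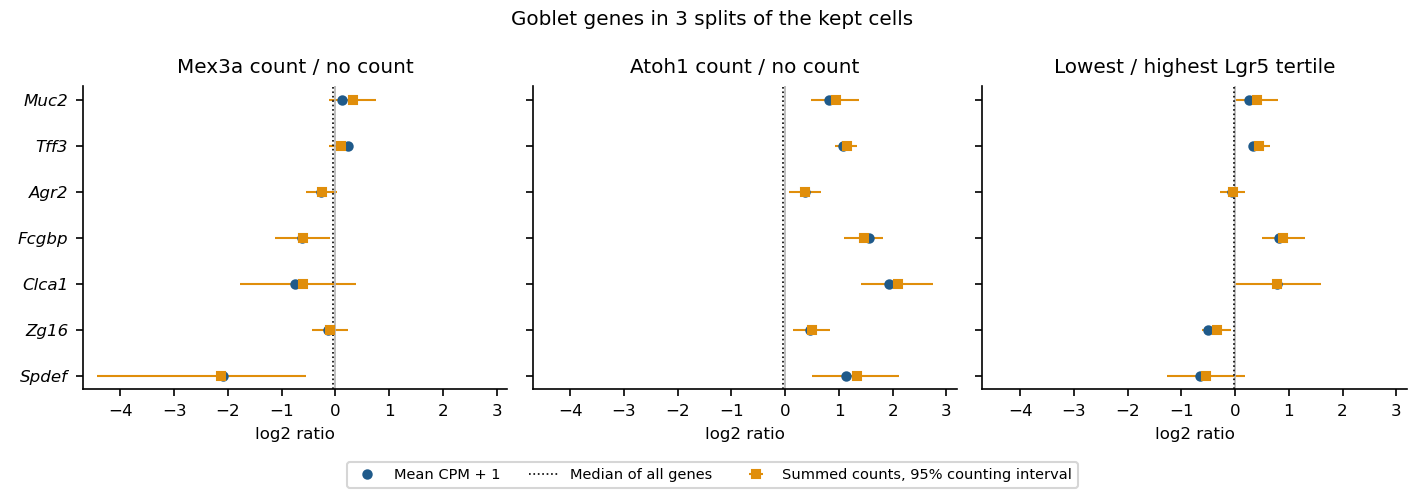
Log2 ratios of the 7 genes in cells with over cells without a Mex3a count (left) or an Atoh1 count (middle), and in the lowest over the highest Lgr5 tertile (right). Blue points use mean CPM + 1, orange squares use summed counts with their 95% counting interval, and the dotted line is the median of all genes. All 7 genes lie right of 0 for Atoh1, Spdef lies at -2.09 for Mex3a, and no gene lies beyond 1 in either direction for Lgr5.

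Among other goblet cell products, 12 of 22 were higher in the lowest Lgr5 tertile, 2 by at least 1, Ttc39a (1.14) and S100a6 (1.08), with a median of 0.00042, and Agr3 (-0.37) and Clca3a1 (-0.25) were lowest. Gcnt3 was the 1 of 17 mucin glycosylation genes higher by at least 1 (1.01, 8.62 CPM in the lowest and 3.77 CPM in the highest tertile). Atoh1 had a ratio of 0.72 (5.47 CPM in the lowest and 2.93 CPM in the highest tertile), and 10 of 14 secretory fate factors were higher in the lowest tertile. The median log2 ratio of all genes between these tertiles was -0.02.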

How the data were processed

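The authors deposited a table of counts, whole numbers per gene and cell without normalization. The submitters' processing notes name the build GRCm38.p4. Not given in the sources used here are the aligner, the counter, the annotation release, strand handling and whether molecules carried identifiers. Identifiers were matched to GENCODE M21 (GRCm38) symbols for 33219 rows, and 277 had none. Cells were kept with at least 10000 counts, which left out 20. CPM scaled each count by the total of its cell. Shares carry exact Clopper-Pearson intervals at 95%, which cover counting error only, since amplified reads are not independent molecules. Ratios used a pseudocount of 1 CPM and genes found in 5% or more of the cells, and r genes found in 10% or more. A log2 ratio of 1 and an r of 0.2 were the sizes counted. Doublets were not removed, and an alternative left out the 5% of cells with the most genes. No conditions were tested against each other, because there was 1 sample, and Dixon's ratio was used only to pick out single library sets. The calculations were checked on simulated data.

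Named outside the members were the genes that split the cells, the 10 genes most like the 7 members and up to 3 for each, and the highest and lowest 2 of each list. The members and lists were chosen with earlier results of these data known. Genes listed as Tff1, Tff2 and Muc16 had no row of that symbol. Alternatives changed the cell filter, left out library sets, rich cells or the cells with the most genes, and changed thinning, the detection level, the pseudocount and the centring. Promoter sequences came from RefSeq (GRCm38.p6). Python 3.11.15, numpy 2.4.6, pandas 2.3.3, scipy 1.17.1 and matplotlib 3.10.9 were used.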

Additional observations from a re-analysis of the deposited data

Results flagged for a closer look

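Library set 4 lay far above the other sets for Muc2, with a share of cells with a count of 89.7% (next highest set 43.2%) and a mean of 138.6 CPM (next 47.96 CPM), and for Agr2, with a mean of 246.7 CPM (next 114.6 CPM). The gap to the next set divided by the range over the 10 sets was 0.53, 0.66 and 0.65, above Dixon's 95% critical value for 10 values. Chance flags about 1 in 20 groups. The 20 cells under 10000 counts, which entered no comparison, also held counts of the members, 41 of Tff3, 34 of Agr2, 14 of Zg16 and 12 each of Muc2 and Fcgbp. Their part in the results was not tested beyond the alternative with all 400 cells.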

How the results depend on the processing

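The shares of cells depend on what counts as presence. At 2 counts or more they were 16.8% for Muc2, 67.9% for Tff3, 47.9% for Agr2, 20.5% for Fcgbp, 39.7% for Zg16 and 4.21% each for Clca1 and Spdef. When each library set was left out in turn, the Muc2 share lay between 26.1% (without set 4) and 36.1%, and between 2 and 4 pairs of members reached an r of 0.2, with 2 without set 1 and 2 without set 4. That count was 0 without the 19 richest cells, 7 without centring and 10 on thinned counts. The median ratio by Atoh1 was 0.28 without the richest cell, an alternative chosen after seeing the data, and -0.23 without the 19 richest, where Clca1 turned to -0.89. The causes were not tested. Spdef by Mex3a was at -0.76 with a pseudocount of 10 CPM and between -2.66 and -1.79 when sets were left out in turn. Shares on thinned counts moved with the depth, at the 25th percentile of totals to 44.6% for Fcgbp, 81.1% for Tff3 and 56.5% for Zg16. With 1 population and no animal named, technical and animal differences between sets cannot be told apart, and members with few counts, Clca1 and Spdef, are limited by depth. No paired analysis was possible because there was 1 group.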
